A study of Mus musculus with 4 samples.

Results

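A set of 10 genes was examined by the accessibility of their chromatin in single nuclei of mouse inguinal white fat: the PDGF receptor genes Pdgfra and Pdgfrb, the progenitor surface marker genes Cd34, Ly6a, Dpp4, Pi16, Cd55, Icam1 and F3, and the preadipocyte gene Dlk1. The genes were chosen by name, and their values were taken from every deposited peak on the gene body or in the 2000 bases upstream of it on mm10. Of the 10 genes, 9 held at least 1 peak, with 47 peaks in all, against 17196 of 21951 protein-coding genes and 189598 peaks in the whole table. Dlk1, a surface protein that marks preadipocytes, held no deposited peak, and the nearest peak lay 2141 bases from its window, so no value is given for it.

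The study exposed 8-week-old male C57BL/6 mice to cold (6.5 °C) or to the drug CL-316,243 (called CL here), which selectively activates the β3-adrenergic receptor Adrb3 and was given at 1 mg/kg, after keeping them at room temperature (22 °C). The 7 groups of 3 mice were day0RT (day 0, room temperature), day1C, day3C and day7C (1, 3 and 7 days of cold) and day1CL, day3CL and day7CL (1, 3 and 7 days of CL). No transgene or deletion is named for any group, the tissue was inguinal fat, and a mouse is the replicate. Single-nucleus ATAC-seq gave 32552 nuclei in 12 annotated cell types, and the sequenced lanes pooled the groups, so that the mouse and the cell type of each nucleus come from the deposited annotation.

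CD34, Sca1 (encoded by Ly6a) and the receptor PDGFRα mark stromal cells that can become adipocytes, and PDGFRβ marks perivascular cells together with part of the progenitors. In subcutaneous fat, DPP4 and PI16 are known for interstitial progenitors that sit in the connective sheath of the tissue, ICAM1 for preadipocytes committed to the adipocyte fate, and F3 (tissue factor, CD142) for a stromal population that restrains adipogenesis. PDGF ligands bind the receptors as dimers, and the receptors relay the signal through phosphatidylinositol 3-kinase, Src and the Ras pathway. CD55, an inhibitor of complement activation, and ICAM1, the ligand of leukocyte integrins, are also found on blood and endothelial cells, and DPP4 is the T cell surface peptidase CD26.

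The peaks of the genes that stood highest in an annotated progenitor cluster can be read as sequence. In each line the bases run 5′ to 3′ on the strand of the gene, from the mouse genome GRCm38.p6, and capitals mark a match to 1 of 10 short motifs searched on both strands (TGANTCA for AP-1, CCCNNGGG for EBF, TTGCNNAA for C/EBP factors, GGGCGG for the GC box, GGAATG for TEAD, TGTGGT for RUNX, AGGAAG for ETS, GGGANTTTC for the NF-kB family, TTGGCA for NFI and AGATAA for GATA factors). The first 4 lines come from the peak highest in APC1, the first of the 2 clusters annotated as adipocyte progenitors, of the genes that stood highest there relative to the other cell types. They lie at chr5:75156491-75156690 (Pdgfra, within the gene, plus strand), chr1:194938656-194938818 (Cd34, just upstream of the annotated start, plus strand), chr15:74998988-74999187 (Ly6a, upstream, minus strand) and chr17:29319215-29319302 (Pi16, coding exon, plus strand).
Pdgfra, highest APC1 peak: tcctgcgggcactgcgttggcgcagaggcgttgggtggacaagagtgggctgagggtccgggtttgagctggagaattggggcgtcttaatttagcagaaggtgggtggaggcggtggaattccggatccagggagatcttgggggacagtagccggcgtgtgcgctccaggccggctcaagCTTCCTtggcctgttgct
Cd34, highest APC1 peak: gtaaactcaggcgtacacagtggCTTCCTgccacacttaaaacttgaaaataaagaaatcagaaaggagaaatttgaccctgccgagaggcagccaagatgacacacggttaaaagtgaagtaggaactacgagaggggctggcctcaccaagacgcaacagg
Ly6a, highest APC1 peak: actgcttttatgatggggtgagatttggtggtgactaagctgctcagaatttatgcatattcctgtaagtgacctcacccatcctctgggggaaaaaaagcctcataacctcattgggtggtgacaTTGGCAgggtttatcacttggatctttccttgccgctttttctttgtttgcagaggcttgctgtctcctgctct
Pi16, highest APC1 peak: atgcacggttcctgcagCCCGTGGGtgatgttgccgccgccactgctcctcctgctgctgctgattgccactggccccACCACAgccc

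The Pdgfra and Cd34 stretches each held 1 ETS match, a motif present in 31.2% of all deposited peaks read over 200 bases and in 26.9% read over 163 bases. The Ly6a stretch held an NFI match (17.98% of peaks over 200 bases), and the Pi16 stretch held an EBF and a RUNX match (3.86% and 8.42% of peaks over 88 bases). These shares read the central bases of every peak, while the Pdgfra, Cd34 and Pi16 stretches lie off the centre of their peaks. The Pi16 stretch is also coding sequence, so the shares are only a rough measure. A match is a description of the letters and not a bound site. Over the central 200 bases of the 25 member peaks that lean to APC1 or APC2, as defined below, NFI was matched in 6, ETS in 6 and EBF in 5 (8.08% of all peaks over 200 bases), and the other 7 motifs were each matched in 1 to 4. These counts were not tested.

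Dpp4 and Pdgfra each used more than 1 kind of peak, and 3 further stretches, chosen after their values were seen, show this. The first is from the Dpp4 intron peak highest in APC1 (chr2:62398850-62399049, minus strand), the second from the Dpp4 intron peak highest in CD8 T cells (chr2:62394907-62395106, minus strand), and the third is the start region of Pdgfra (chr5:75152068-75152250, plus strand).
Dpp4, APC1 intron peak: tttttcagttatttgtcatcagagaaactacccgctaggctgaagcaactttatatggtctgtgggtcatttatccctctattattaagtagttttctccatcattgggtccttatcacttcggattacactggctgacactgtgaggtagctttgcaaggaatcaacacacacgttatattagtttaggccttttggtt
Dpp4, CD8 intron peak: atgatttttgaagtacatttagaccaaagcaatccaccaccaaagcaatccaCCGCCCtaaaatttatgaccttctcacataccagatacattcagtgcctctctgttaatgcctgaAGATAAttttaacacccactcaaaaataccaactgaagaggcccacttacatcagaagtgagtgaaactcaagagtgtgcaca
Pdgfra, gene start: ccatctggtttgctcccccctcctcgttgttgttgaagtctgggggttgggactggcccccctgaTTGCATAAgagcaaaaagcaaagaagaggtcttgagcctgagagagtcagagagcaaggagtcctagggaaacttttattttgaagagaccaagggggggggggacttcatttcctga

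The APC1 intron stretch of Dpp4 held none of the 10 motifs, and the CD8 stretch held a GC box and a GATA match (8.15% and 8.58% of peaks over 200 bases). The start region of Pdgfra held a C/EBP match, which 13.0% of peaks hold over their central 183 bases. That stretch too lies off the centre of its peak.

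The data are sparse, and 3 mice stand apart. Entries per mouse, each a peak scored as open in a nucleus, ran from 1340376 to 6916698 (median 2693754). Lymphocytes made up 36.8% of the nuclei of day3C replicate 1, 11.9% of day1CL replicate 3 and 14.1% of day3CL replicate 2, against 58.2% to 90.8% in the other 18 mice. Those 3 mice gave 256 of the 665 APC1 nuclei but 15 of the 562 nuclei of APC2, the second cluster of that annotation. APC1 could be read in 20 mice and APC2 in 19, at a minimum of 10 nuclei, and in the median APC1 library 1 entry was worth 23.1 counts per 1000000 counts (CPM). Of 28031 distinct barcodes, 4218 occurred in more than 1 mouse. Adipocyte progenitor markers were higher in APC1 than in APC2 for 10 of 10 genes (summed gene-scale CPM 1705 against 700, per 1000000 gene counts), while mural cell markers and lymph node stroma markers were each higher in APC2 for 10 of 10 genes (1075 against 431 and 567 against 308). Over the 12 cell types, 9 of the 10 progenitor markers were highest in APC1 and 0 in APC2, while 8 mural and 9 lymph node stroma markers were highest in APC2. The progenitor markers include Pdgfra, Cd34, Ly6a and Ebf2, and the mural markers Acta2 and Myh11, which the study used to describe these clusters. These counts are therefore not independent of the labels. Pdgfra is counted by its mean, and was higher in APC1 in 9 of 18 mice. APC2 thus carried less of the progenitor markers than APC1 and more of the mural and lymph node stroma markers, and both are called by their labels only. The cluster annotated as vascular smooth muscle carried 1040 CPM of skeletal muscle genes and 489 CPM of mural genes, and it too is called by its label only. Fewer accessible nuclei and less accessibility per nucleus cannot be told apart in such sums, and the study named APC1 and APC2 with Pdgfra, Pdgfrb, Cd34 and Ly6a among other genes, so the levels in APC1 and APC2 are a description of those clusters.

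Pdgfra was open in both APC clusters at overlapping levels, while Pdgfrb was higher in APC2. Pdgfra (chr5:75152292-75198215, plus strand) encodes the receptor that binds PDGF-A, PDGF-B and PDGF-C chains. Its gene-scale CPM in APC1 ran from 0 to 173 with a median of 88.2 (84.6 ± 42.5, SD, n = 20), and in APC2 from 32.8 to 143 with a median of 75.1 (75.7 ± 30.7, SD, n = 19). The range of APC2 lay wholly within that of APC1. White adipocytes (29.2 ± 9.92, SD, n = 21) and beige adipocytes (40.1 ± 24.3, SD, n = 19) followed, and B cells were lowest at 5.37 ± 4.84 CPM (SD, n = 21). In the order of the 12 cell types, the step from APC2 to beige adipocytes was the only one between neighbours larger than either SD.

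Pdgfrb (chr18:61045150-61085061, plus strand), the receptor for the PDGF-B and PDGF-D chains, ran from 30.4 to 466 gene-scale CPM in APC2 with a median of 179 (187 ± 100, SD, n = 19). In APC1 it ran from 0 to 340 with a median of 68.1 (88.4 ± 81.9, SD, n = 20). APC2 was higher in 15 of the 18 mice that held both clusters. Macrophages (59.3 ± 32.3, SD, n = 21), vascular endothelial cells (46.0 ± 42.2, SD, n = 15) and dendritic cells (34.0 ± 31.2, SD, n = 17) also carried it, and no pair of neighbours in its order was further apart than the larger SD.

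Cd34 was open in APC1 and at or near 0 in APC2. Cd34 (chr1:194938819-194961279, plus strand) encodes a sialomucin of stem, stromal and endothelial cells, and its gene-scale CPM in APC1 ran from 44.9 to 173 with a median of 91.2, with no library at 0 (94.3 ± 34.7, SD, n = 20). In APC2 it was at 0 in 15 of 19 libraries and reached 28.6 at most, on 5 entries in all. Every one of the 18 mice with both clusters was higher in APC1. Vascular endothelial cells came second at 42.9 ± 40.2 CPM (SD, n = 15), a step below APC1 larger than either SD, and white adipocytes stood at 5.85 ± 3.95 CPM (SD, n = 21). At least 1 Cd34 entry was found in 108 of 665 APC1 nuclei (16.2%, median depth 1380 entries per nucleus), in 5 of 562 APC2 nuclei (0.890%, median depth 1815) and in 14 of 11967 B cells (0.117%, median depth 974).

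Ly6a and Pi16 followed Cd34 with fewer entries. Ly6a (chr15:74994877-74998031, minus strand) belongs to a family of similar Ly6 genes. The study removed read pairs of low mapping quality, so reads that also fit another of these genes may be missing or assigned with error. The gene-scale CPM of Ly6a in APC1 ran from 0 to 218 with a median of 48.0 (50.9 ± 49.3, SD, n = 20), and in APC2 it was at 0 in 14 of 19 libraries. Lymphocytes held it too, at 27.8 ± 10.4 CPM in B cells (SD, n = 21) and 21.6 ± 11.4 CPM in CD4 T cells (SD, n = 20). Pi16 (chr17:29317680-29330593, plus strand), a secreted peptidase inhibitor, ran from 0 to 152 gene-scale CPM in APC1 with a median of 32.9 and 6 libraries at 0 (36.4 ± 36.5, SD, n = 20). In APC2 it was at 0 in 17 of 19 libraries, with 3 entries against 45 in APC1. Over all mice the ratio of their CPM was 14.3 with an exact 95% interval of 4.60 to 72.1. That interval covers counting error only, with every entry taken as independent, and leaves out the spread between mice. The 3 APC2 entries lay in 2 nuclei and the 45 APC1 entries in 37, so it is too narrow even for that. White and beige adipocytes held Pi16 at 9.71 ± 3.73 (SD, n = 21) and 10.6 ± 9.57 CPM (SD, n = 19).

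Dpp4 was open in APC1 and in lymphocytes. Dpp4 (chr2:62330073-62412231, minus strand) had a gene-scale CPM of 0 to 421 in APC1 with a median of 193 (207 ± 110, SD, n = 20) and of 0 to 164 in APC2 with a median of 27.5 (40.6 ± 41.8, SD, n = 19). APC1 was higher in 16 of 18 mice. CD8 T cells were level with APC1, at 139 to 297 with a median of 239 (236 ± 37.9, SD, n = 20), and other T cells, CD4 T cells, B cells, dendritic cells and macrophages lay between 200 and 101 CPM on average. No 2 neighbours in the order of these types differed by more than the larger SD. Across longer steps some did, as CD8 T cells stood above B cells (150 ± 24.4, SD, n = 21) and macrophages (101 ± 55.7, SD, n = 21) by more than either SD. The first step between neighbours larger than either SD was that from macrophages to vascular endothelial cells (44.3 ± 44.3, SD, n = 15). The summed level of 6 T cell markers was 125 CPM in APC1 (0 to 382) and 1123 CPM in CD8 T cells (837 to 1413).

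Icam1 leaned the other way. Icam1 (chr9:21015985-21028817, plus strand) ran from 55.9 to 243 gene-scale CPM in APC2 with a median of 91.0 and no library at 0 (99.5 ± 42.8, SD, n = 19). In APC1 it ran from 0 to 115 with a median of 33.7 and 6 libraries at 0 (32.5 ± 30.9, SD, n = 20), and APC2 was higher in 16 of 18 mice. Dendritic cells (192 ± 114, SD, n = 17) and macrophages (125 ± 48.1, SD, n = 21) stood above APC2, and white adipocytes at 4.98 ± 3.36 CPM (SD, n = 21) were lowest. Macrophage markers and dendritic cell markers summed to 209 and 188 CPM in APC2 and to 141 and 129 CPM in APC1, and their part in the Icam1 level was not tested.

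Cd55 and F3 were highest outside APC1 and APC2. Cd55 (chr1:130439027-130462744, minus strand) was highest in B cells, at 91.6 to 178 gene-scale CPM with a median of 135 (138 ± 19.3, SD, n = 21), a step above every other type larger than either SD. Vascular endothelial cells (70.7 ± 48.5, SD, n = 15), CD8 T cells (68.7 ± 23.0, SD, n = 20) and APC1 (68.3 ± 47.5, SD, n = 20) followed without differing beyond their spread, and APC2 held 33.4 ± 27.3 CPM (SD, n = 19). F3 (chr3:121723537-121735048, plus strand), the trigger of the extrinsic clotting pathway, was highest in beige (55.0 ± 34.4, SD, n = 19) and white adipocytes (49.4 ± 14.0, SD, n = 21). F3 stood at 33.7 ± 25.4 CPM in APC2 (SD, n = 19) and 24.4 ± 24.6 CPM in APC1 (SD, n = 20), and APC1 was lower than white adipocytes in 16 of 20 mice.

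**Figure D1:**
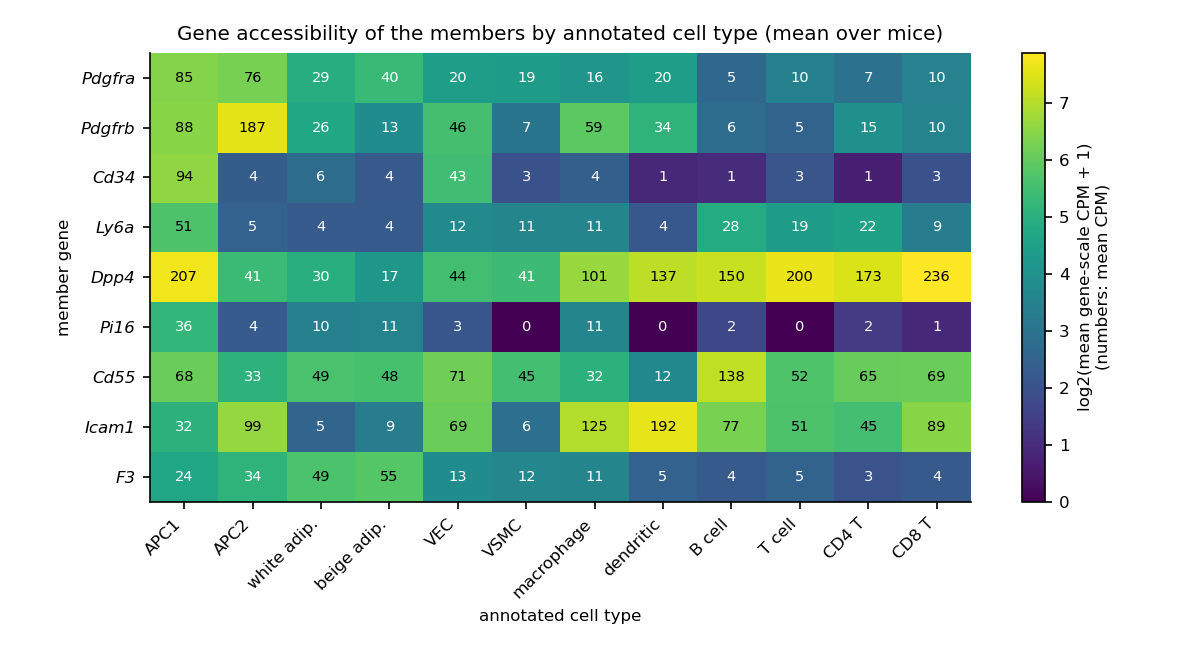
Mean gene-scale CPM over mice of the 9 members with a peak (rows) in the 12 annotated cell types (columns), with the mean printed in each cell and the colour giving log2(mean CPM + 1). Pdgfra, Cd34, Ly6a and Pi16 are highest in APC1, Pdgfrb in APC2, Dpp4 in CD8 T cells just above APC1, Cd55 in B cells, Icam1 in dendritic cells and F3 in beige adipocytes.

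Of the 9 members with a peak, 4 were highest in APC1 (44.4%) and 1 in APC2, against 8.29% and 6.95% of the 15016 genes that reached 20 CPM in some cell type. The study named these clusters with Pdgfra, Pdgfrb, Cd34 and Ly6a among other genes, so nothing is read from the member shares. Per kb of peak, the mean APC1 level was highest for Cd34 (60.5 CPM per kb), then Pdgfra (40.1), Ly6a (37.6), Pi16 (35.5) and Pdgfrb (32.3), with Dpp4 at 25.1 and Icam1 lowest at 13.0. The divisor counts every peak of a gene, also those highest in other cell types, so genes are not strictly comparable on it. In APC2 the same scale put Pdgfrb first at 68.2 CPM per kb, then Icam1 at 39.7 and Pdgfra at 35.9, and Cd34 last at 2.59.

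As a description of the clusters within mice, Dpp4 was higher in APC1 and Pdgfrb in APC2. The edgeR quasi-likelihood test with the mouse as a block was run on 2312 genes that passed the count filter and called 48.1% of them at an adjusted p under 0.05. The study drew the clusters from the same matrix and used Pdgfrb among the genes that describe them. These p-values are therefore not independent of the clusters. Only Dpp4 and Pdgfrb of the 9 members passed the filter, which a gene can pass through the cluster where it is high (Dpp4 had 287 entries in APC1 and 48 in APC2, Pdgfrb 85 and 210), so nothing is read from how many of the members tested were called. Dpp4 was higher in APC1 by a log2 fold of 2.49 (SE 0.22, 5.62-fold, adjusted p = 6.9072e-28), and Pdgfrb was lower by a log2 fold of -1.22 (SE 0.22, adjusted p = 1.0357e-07). Within mice, APC1 minus APC2 was 171 ± 120 gene-scale CPM for Dpp4 and -94.8 ± 140 for Pdgfrb (SD, n = 18). The edgeR p-values share information on spread over all genes tested and do not rest on the spread of each gene alone.

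With no filter on low counts, edgeR tested 17031 genes and called 15.7% of them. Of the 9 members, 6 were then called, Dpp4 (2.30, SE 0.23) and Pdgfrb (-1.38, SE 0.22) among them. The study used Cd34, Ly6a and Pdgfrb to describe these clusters, which it drew from the same matrix. Nothing is therefore read from that count, and the p-values are not independent of the clusters. Cd34 was higher in APC1 by a log2 fold of 3.62 (SE 0.43, adjusted p = 2.2116e-15), Pi16 by 2.95 (SE 0.59, adjusted p = 1.0265e-05) and Ly6a by 2.47 (SE 0.47, adjusted p = 3.0766e-06). Icam1 was lower by a log2 fold of -1.28 (SE 0.28, adjusted p = 5.6297e-05). Pdgfra did not pass, with a log2 difference of 0.10 (SE 0.25, adjusted p = 0.880), nor did Cd55 (0.71, SE 0.32, adjusted p = 0.134) or F3 (-0.36, SE 0.36, adjusted p = 0.640). The edgeR values for Pi16, Ly6a and Cd34 rest on 3, 8 and 5 entries in APC2, where the fitted size of the difference depends on the prior count.

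**Figure D2:**
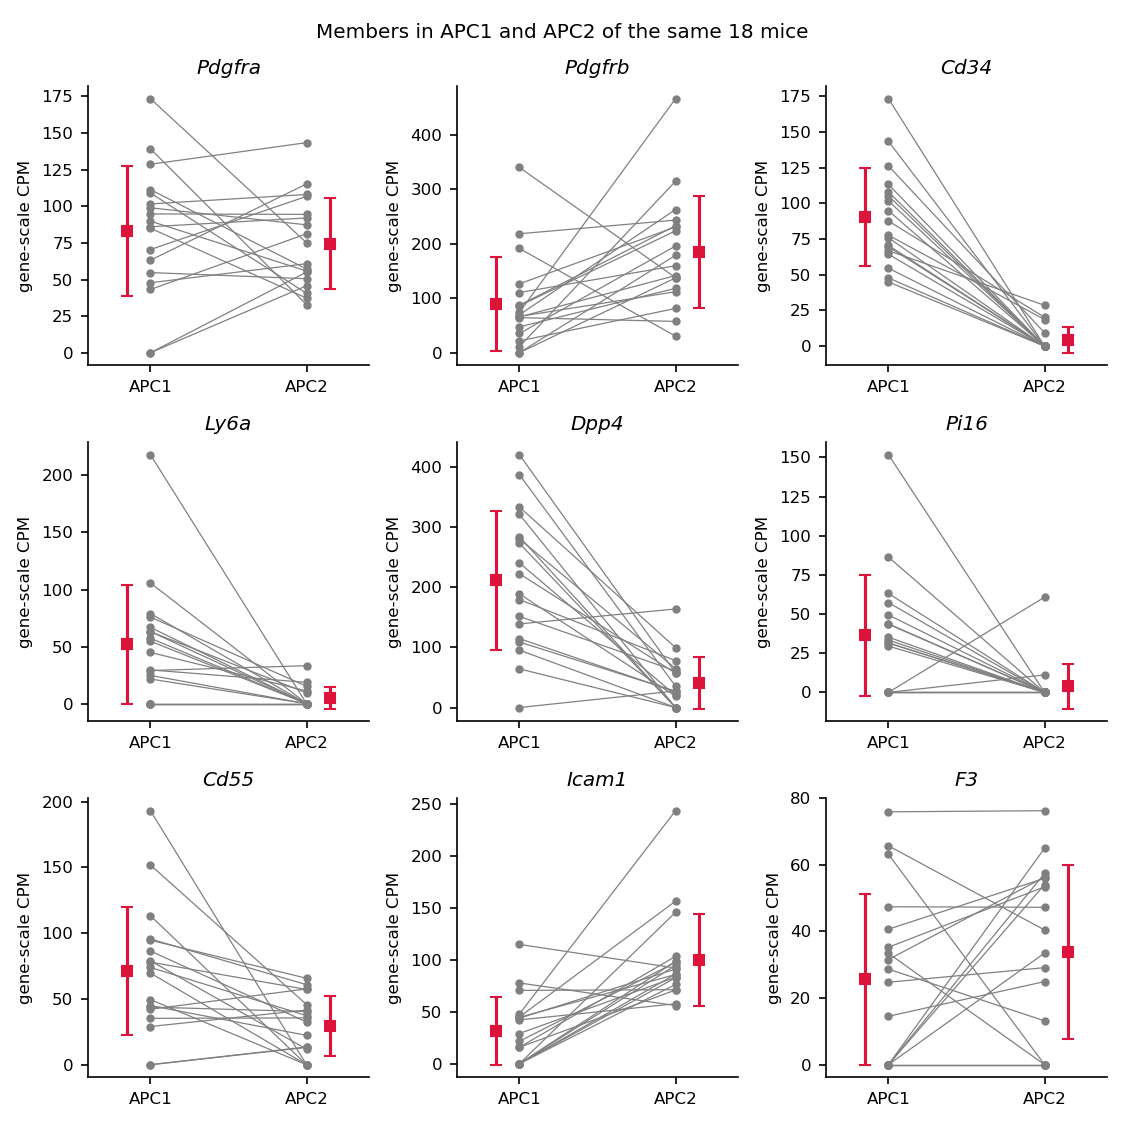
Gene-scale CPM of each member in APC1 and APC2 of the same 18 mice, with a line joining the 2 clusters of a mouse and bars for mean and SD. Cd34 is lower in APC2 than in APC1 in 18 of 18 mice and Dpp4 in 16, Icam1 is higher in APC2 in 16 and Pdgfrb in 15, and Pdgfra is higher in 9 and lower in 9.

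Many APC1 nuclei with another marker also held Dpp4. In APC1, 180 of 665 nuclei held a Dpp4 entry (27.1%) and 37 held a Pi16 entry (5.56%). Of the 108 APC1 nuclei with Cd34, 53 held Dpp4 (49.1%, median depth 2858 entries), and of the 98 with Pdgfra, 42 did (42.9%, median depth 3590). Of the 37 with Pi16, 23 also held a Dpp4 entry (62.2%, median depth 3493). Each of these sets was deeper than APC1 as a whole, with a median of 1380 entries, and nuclei were pooled over mice. Of the 51 APC1 nuclei with Icam1, 27 held Dpp4 (52.9%, median depth 4273), and no difference between these shares was tested. In APC2, 163 of 562 nuclei held a Pdgfrb entry (29.0%) and 103 held an Icam1 entry (18.3%).

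The peaks of a gene did not move together. A peak was counted as leaning to APC1 or APC2 where either was among its 2 highest cell types, and 25 of the 47 member peaks did so, against 28.1% of the 115756 peaks on protein-coding genes. Several of the members were used by the study to name the clusters, so nothing is read from that count. Peak levels are given as peak-scale CPM, per 1000000 peak entries summed over mice, with no test. All 3 Pdgfra peaks leaned to them. The start peak of Pdgfra (chr5:75152068-75152369), whose sequence stands last above, had 18.8 CPM in APC1 and 18.2 in APC2, against 0.452 in white adipocytes, 0.439 in beige adipocytes and 1.63 in vascular endothelial cells. The broad peak 4490 bases inside the gene (chr5:75156167-75157397) was shared, with 34.4 CPM in APC1, 26.3 in APC2, 19.5 in vascular endothelial cells, 16.5 in beige and 14.6 in white adipocytes. White adipocytes held 11 Pdgfra entries at the start peak, 185 at the intron peak and 355 at the broad one.

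The start of Pdgfrb stood at like levels in both clusters, and most of its intron peaks were higher in APC2. The peak at the Pdgfrb start had 29.2 CPM in APC1 and 28.3 in APC2. The intron peak 23375 bases inside was also near level, with 6.48 CPM in APC1 (10 entries) and 7.41 in APC2 (11 entries). The intron peak 13447 bases inside had 3.89 CPM in APC1 and 27.6 in APC2, with no entry in macrophages. The intron peak 29617 bases inside had 1.30 CPM in APC1 (2 entries, in 2 mice) and 39.7 in APC2 (59 entries, in 17 mice), and macrophages (23.8 CPM) and white adipocytes (9.65 CPM) also held it. Near the end of the gene, 39284 bases from the start, macrophages had 12.2 CPM, APC2 8.75 and APC1 1.30. The start peak held 52.9% of the APC1 entries of Pdgfrb and 20.0% of those of APC2.

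**Figure D3:**
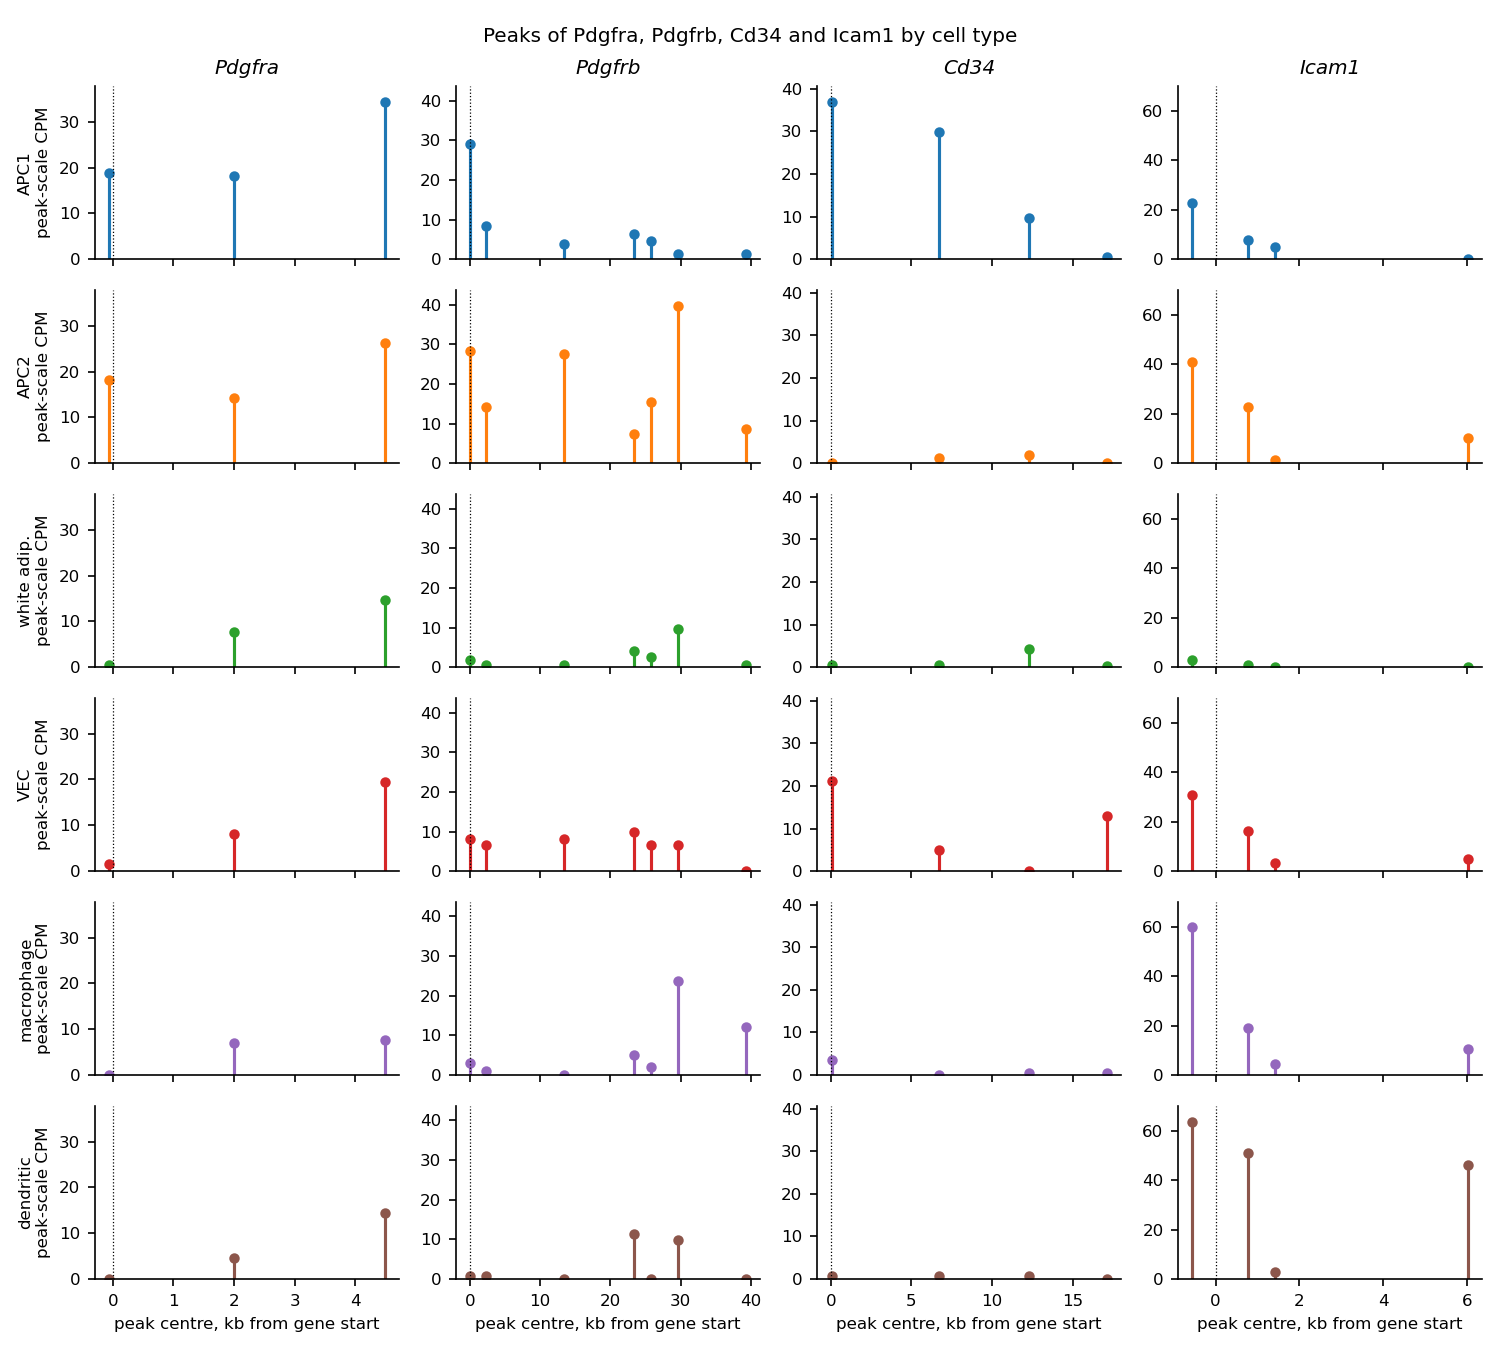
Peak-scale CPM of each peak of Pdgfra, Pdgfrb, Cd34 and Icam1 (columns) against the distance of its centre from the gene start in kb, by cell type (rows). The start peaks of both receptor genes have like heights in APC1 and APC2, the Cd34 start peak stands at 37.0 CPM in APC1 and 0 in APC2, and the Pdgfrb intron peaks near 13 and 30 kb reach 27.6 and 39.7 CPM in APC2 and 3.89 and 1.30 in APC1.

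At Cd34 the start peak and the next one were at or near 0 in APC2. The start peak (chr1:194938656-194939104), which holds the Cd34 sequence above, had 57 entries in 18 mice of APC1 (37.0 CPM) and 0 entries in APC2. A count of 0 was read as up to 3 entries (2.02 CPM), and the APC1 level was 18.3-fold that. Such a ratio leaves out the counting error of the higher cluster and the spread between mice. The intron peak 6744 bases inside had 29.8 CPM in APC1 and 1.35 in APC2. Vascular endothelial cells used the start (21.2 CPM) but held 4.88 CPM at that intron peak, and they led at another, 17143 bases inside (13.0 CPM against 0.648 in APC1). The upstream peak of Ly6a had 20.1 CPM in APC1 and 2.02 in APC2, while its peak 1018 bases inside the gene was highest in B cells (13.9 CPM against 9.08 in APC1). The Pi16 peak over a coding exon had 16.2 CPM in APC1 and 0.673 in APC2 (25 entries against 1), and the Pi16 intron peak 3019 bases inside was highest in beige adipocytes (7.46 CPM, 4.85 in white adipocytes and 4.54 in APC1).

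Dpp4, with 18 peaks, had peaks highest in APC1 and peaks highest in lymphocytes. In its introns 11048 and 13281 bases from the start, APC1 had 27.2 and 31.8 CPM, APC2 1.35 and 2.02, and CD8 T cells 0.792 and 2.06. A narrower peak between them, at 12699 bases, had 22 entries in APC1 and 0 in APC2, with APC1 at 7.06-fold the level of 3 APC2 entries. At 17224 bases the order was turned around, with 52.0 CPM in CD8 T cells, 42.1 in other T cells, 27.9 in CD4 T cells and 1.95 in APC1 (3 entries, in 1 mouse). The peak 21048 bases inside had 40.1 CPM in CD8 T cells and 13.6 in APC1. Dendritic cells led at 12180 bases (23.5 CPM), CD4 T cells at 59953 bases (20.1 CPM), and B cells at 19856 bases (19.3 CPM). The start peak was shared, with 52.6 CPM in CD8 T cells, 43.8 in B cells, 24.0 in APC1 and 6.73 in APC2. White adipocytes had little at the start (3.53 CPM) and 8.34 CPM at the peak 32877 bases inside, where APC1 had 17.5.

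**Figure D4:**
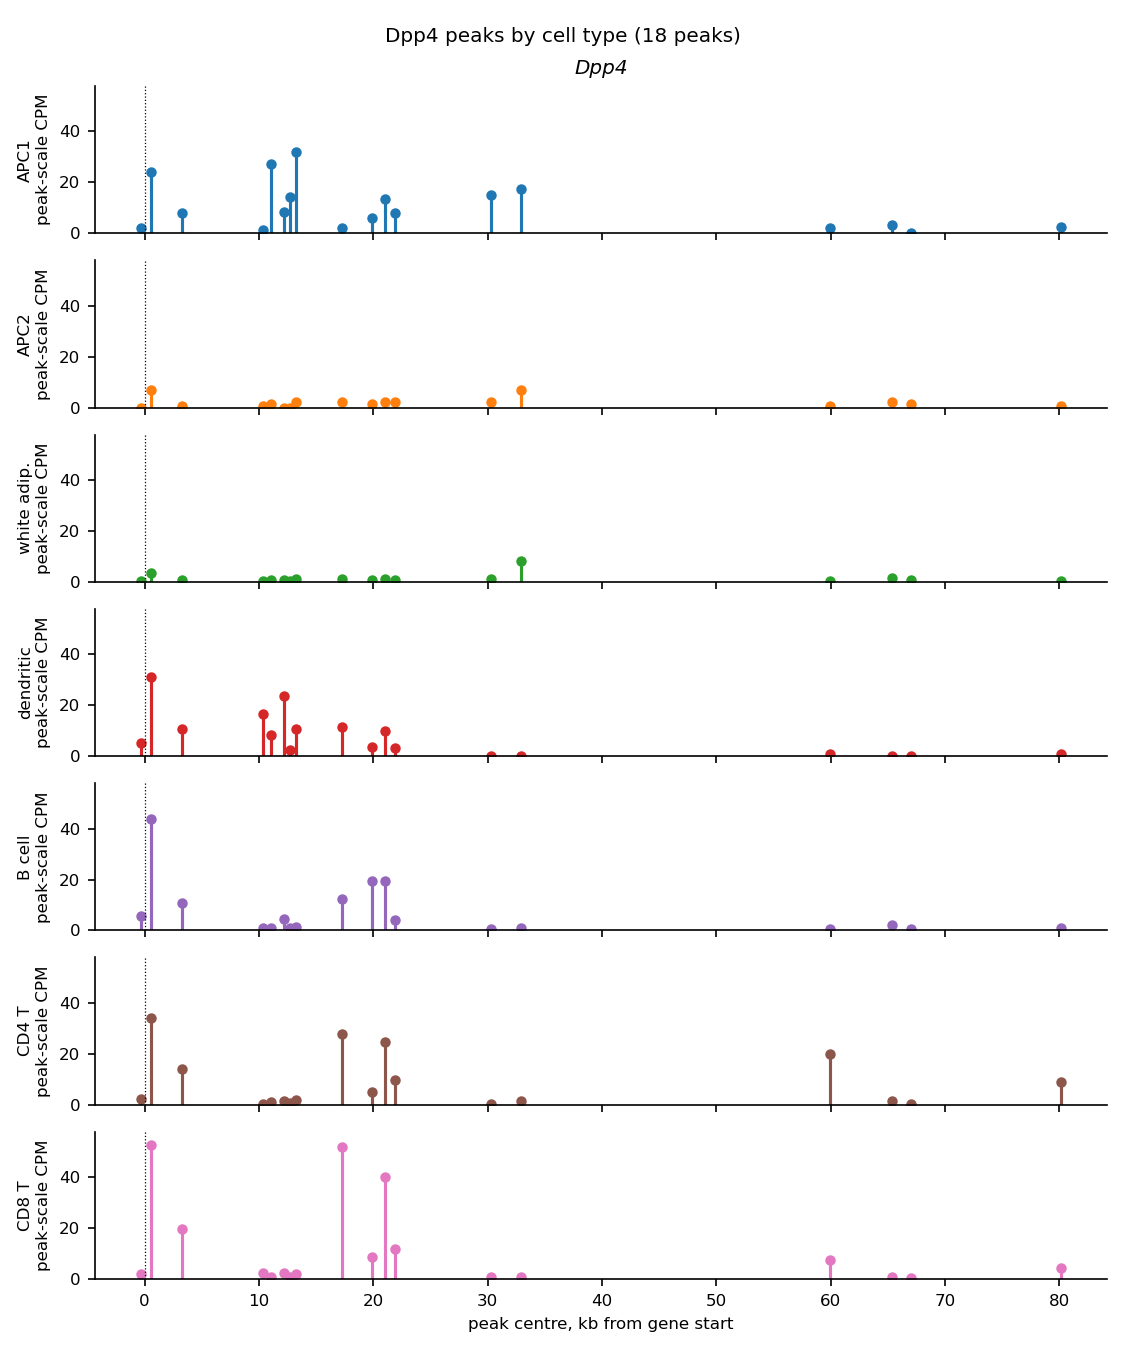
Peak-scale CPM of the 18 Dpp4 peaks against the distance of the peak centre from the gene start in kb, by cell type (rows). APC1 stands highest at peaks near 11 and 13 kb (27.2 and 31.8 CPM), where CD8 T cells hold 0.792 and 2.06, and CD8 T cells at the peak near 17 kb (52.0 CPM), where APC1 holds 1.95.

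The start peaks of Icam1 and Cd55 held most of the APC1 entries of each gene (63.6% for Icam1), and other peaks had other orders of cell types. The Icam1 start peak had 63.8 CPM in dendritic cells, 41.1 in APC2 and 22.7 in APC1. Its intron peak 773 bases inside had 50.9 CPM in dendritic cells, 22.9 in APC2 and 7.78 in APC1. The Icam1 peak 1420 bases inside was highest in CD8 T cells (8.87 CPM), with 5.19 in APC1 (8 entries) and 1.35 in APC2 (2 entries). The Icam1 peak 6029 bases inside had 46.3 CPM in dendritic cells, 10.1 in APC2 (15 entries) and 0 in APC1. There APC2 was at 5.19-fold the level of 3 APC1 entries. The Cd55 start peak had 112 CPM in B cells, 38.3 in APC1 and 22.9 in APC2, and held 78.7% of the APC1 entries of the gene. F3 held a single peak, at its start, with 36.2 CPM in beige adipocytes, 34.4 in white adipocytes, 29.6 in APC2 and 23.3 in APC1.

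Between adipocyte types, Dpp4 and Pdgfrb were lower in beige than in white nuclei of the same mice. Of 13187 genes tested by edgeR with the mouse as a block, 28.4% were called, and of the 5 members tested 2 were called. Dpp4 stood at 16.9 ± 12.9 gene-scale CPM in beige and 31.4 ± 10.4 in white adipocytes (SD, n = 19) and was lower in 16 of 19 mice (log2 fold -0.81, SE 0.19, adjusted p = 0.00024021). Pdgfrb stood at 13.4 ± 12.7 CPM in beige and 25.0 ± 6.46 in white adipocytes (SD, n = 19) and was lower in 13 of 19 (log2 fold -1.02, SE 0.22, adjusted p = 0.00011689). Pdgfra (log2 difference 0.20, SE 0.15, adjusted p = 0.355), F3 (0.05, SE 0.12, adjusted p = 0.825) and Cd55 (-0.03, SE 0.12, adjusted p = 0.897) did not pass. These clusters too were drawn from the same matrix, and a gene can pass the filter through the cluster where it is high. Dpp4 and Pdgfrb were each at 0 in 4 of 19 beige libraries. Nothing is therefore read from how many of the members tested were called, and the 2 differences describe these clusters. Read over promoter peaks alone, neither Dpp4 nor Pdgfrb could be tested, and 0 of the 2 other members that could be tested were called.

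Cold and CL moved no member past the threshold in adipocytes. White and beige nuclei of a mouse were summed, and the 6 treated groups were each compared with the same 3 day0RT mice. By edgeR, 0 of 54 member comparisons were called, against 3.43% of all 94224 comparisons. At an unadjusted p under 0.05 edgeR gave 8 of the 54, and DESeq2 called 0. The unadjusted count is not set beside the share over all genes, so nothing is read from its size. F3 took 4 of those 8. Its gene-scale CPM was 43.9, 53.2 and 98.3 in the 3 day0RT mice. It was 35.0, 38.2 and 49.1 at day3C, 28.1, 40.0 and 40.9 at day1CL, 39.7, 40.9 and 56.9 at day3CL and 39.6, 41.6 and 56.4 at day7CL. Of these only day1CL lay wholly below day0RT, and 1 day0RT mouse was far above the other two. Over all genes tested, 19.1% of such comparisons did not overlap with day0RT. Over all 6 groups the F3 log2 difference ran from -0.55 to -0.03 (SE 0.19 to 0.24, smallest adjusted p 0.199). Single mice moved it: without day0RT replicate 2, the highest mouse, the F3 difference was -0.26 at day3C, -0.30 at day1CL, -0.16 at day3CL and -0.15 at day7CL. Without day0RT replicate 3, the lowest, it was -0.82, -0.86, -0.72 and -0.71 in the same order (smallest adjusted p 0.0706 by edgeR), and at day1CL it was -0.92 without day1CL replicate 3.

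Pdgfra was 32.7, 35.8 and 49.2 gene-scale CPM in the adipocytes of the day0RT mice, 15.2, 24.6 and 26.8 at day3C, 0, 28.1 and 30.7 at day1CL, and 24.9, 27.4 and 30.5 at day7CL, 3 groups that did not overlap with day0RT. The mouse at 0, day1CL replicate 1, held 23 white adipocyte nuclei. The log2 difference of Pdgfra was -0.59 at day3C (SE 0.23, adjusted p = 0.199) and between -0.40 and -0.07 in the other 5 groups, and edgeR called none of them.

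Pi16 was 4.09, 7.02 and 8.09 gene-scale CPM in the adipocytes of day0RT mice, 10.0, 10.7 and 12.8 at day3C, 12.7, 15.0 and 15.0 at day7C and 8.40, 10.9 and 12.02 at day3CL, without overlap with day0RT in those 3 groups. The log2 difference was 1.05 at day7C (SE 0.47, adjusted p = 0.210) and positive in all 6 groups (0.35 to 1.05). Ly6a had the smallest p of the set, with a log2 difference of 2.41 at day1CL (SE 0.82, adjusted p = 0.0992), on 3 entries at day 0. That difference came from 1 mouse, day1CL replicate 3 at 12.1 CPM, and the other two day1CL mice were at 0. Without that mouse the day1CL group held 0 entries, and no difference can be read. At day3CL Ly6a was 5.49, 6.16 and 6.56 CPM, wholly above day0RT at 0, 2.31 and 3.51. The log2 difference there was 1.62 (SE 0.79, adjusted p = 0.258 by edgeR). In all, 8 of the 54 member comparisons had groups that did not overlap with day0RT, against 19.1% over all genes tested.

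**Figure D5:**
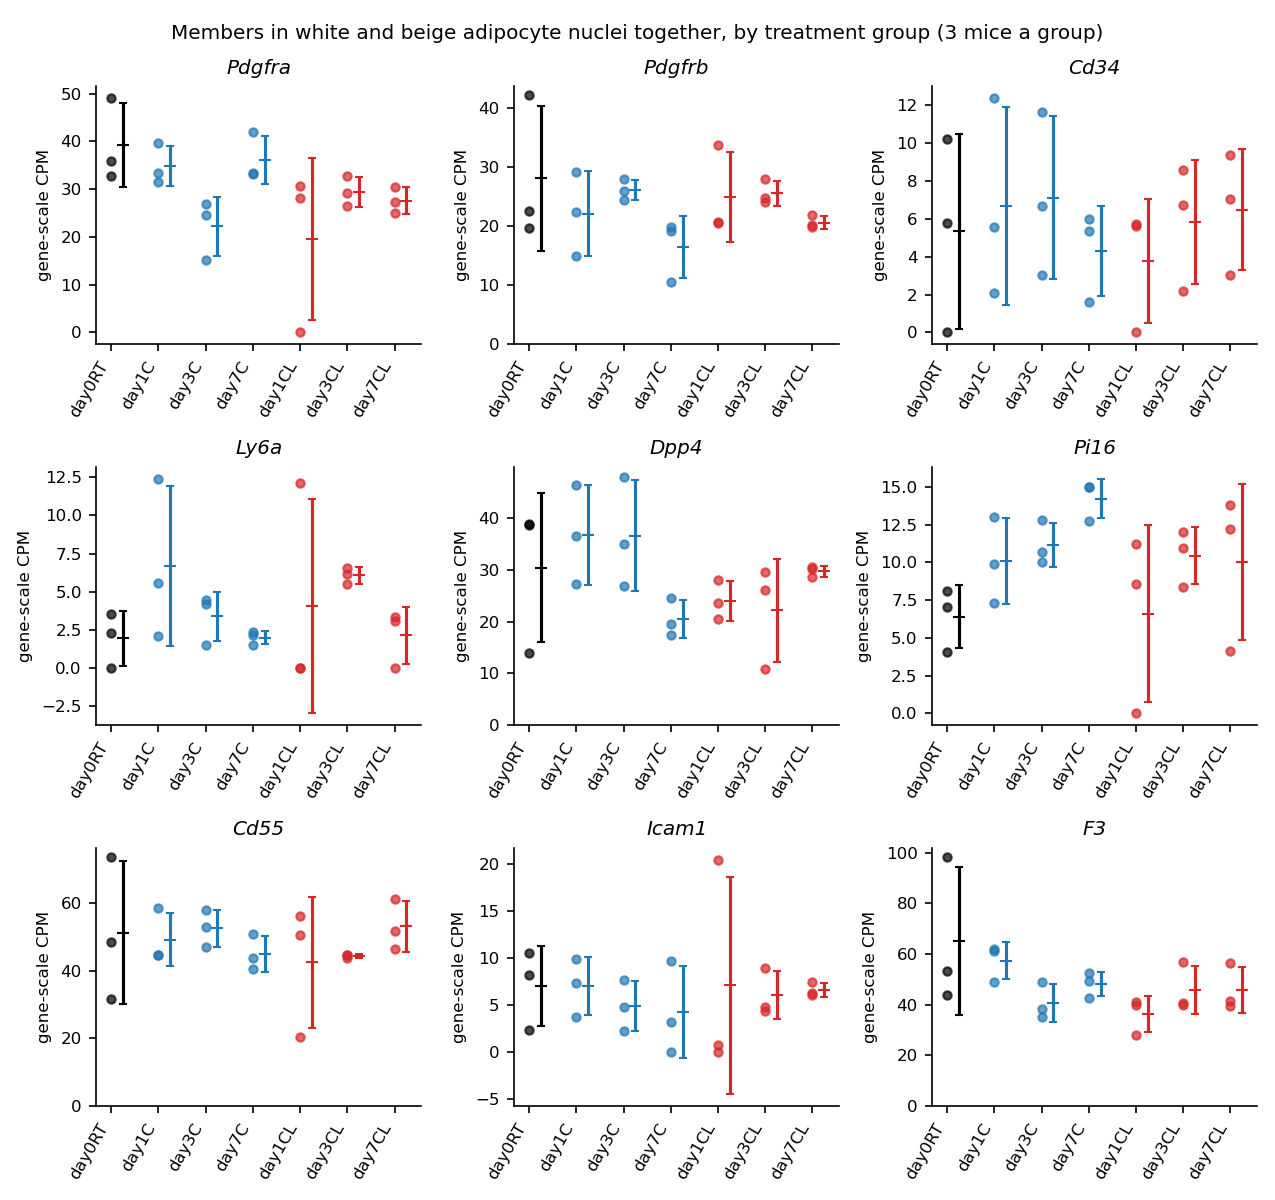
Gene-scale CPM of the members in white and beige adipocyte nuclei together, by treatment group, with a point for each of 3 mice and bars for mean and SD. Pdgfra at day3C, day1CL and day7CL and F3 at day1CL lie below the day0RT mice. Pi16 at day3C, day7C and day3CL and Ly6a at day3CL lie above them, and no difference passed the adjusted threshold.

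Single peaks were tested in adipocytes too. Of the 47 member peaks 12 passed the filter, and edgeR called 0 of 72 peak comparisons, against 1.18% of all peak comparisons, with 13 at an unadjusted p under 0.05 and 0 called by DESeq2. Nothing is read from the 13, as the share over all peaks at that p is not given. The closest was the Dpp4 peak 32877 bases inside the gene, with a log2 difference of -1.90 at day1CL (SE 0.62, adjusted p = 0.107) and -0.95 at day3CL (SE 0.42, adjusted p = 0.255). The Dpp4 start peak had a log2 difference of 2.16 at day3C (SE 0.88, adjusted p = 0.274), and the gene total 0.32 (SE 0.27). The upstream Cd55 peak had log2 differences of -0.83 at day7C, -0.73 at day3CL and -0.75 at day7CL, with a smallest adjusted p of 0.226.

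In APC1 and APC2 summed per mouse, which joins clusters of unlike markers, treatment moved no member and no other gene past the threshold. By edgeR 0 of 36 member comparisons were called, against 0% of all 62112, with 1 member comparison at an unadjusted p under 0.05 and 0 called by DESeq2. Nothing is read from that 1, as the share over all genes at that p is not given. In APC1 alone 0 of 30 were called, and in APC2 alone 0 of 24. In the sum, Pdgfrb was 55.6, 92.9 and 96.2 gene-scale CPM in day0RT mice, and 114, 143 and 170 at day1C, 117, 141 and 177 at day3CL and 105, 142 and 201 at day7CL. These 3 groups lay wholly above day0RT, and day3C, day7C and day1CL overlapped with it. In APC1 alone and in APC2 alone, Pdgfrb overlapped with day0RT in every treated group. In APC1 and APC2 summed, 4 of 36 member comparisons did not overlap, against 10.7% over all genes tested. The Pdgfrb log2 difference was 0.71 to 0.84 in the 6 groups (SE 0.43 to 0.50, smallest adjusted p 0.978). The share of APC2 among these nuclei, which differed from 0% to 77.4% between mice, enters this sum, and its part was not tested. Cd34 had a log2 difference of 1.10 at day1CL (SE 0.52, adjusted p = 0.974), where the 3 mice held 0, 93.6 and 121 CPM, against 18.6, 46.3 and 56.1 at day0RT. In APC1 alone Cd34 was 121 and 173 CPM in the 2 day1CL mice read, above day0RT (47.8, 66.8 and 108), as was day3CL (113, 126 and 141). How often groups failed to overlap over all genes was not counted for APC1 alone, so nothing is read from this. The APC2 share enters this sum for Cd34 too, and its part was not tested. Pi16, which was not tested in this sum and is not among the 36, was 24.0, 37.1 and 37.2 CPM at day0RT and 0, 0 and 13.5 at day7C, on 9 and 2 entries. In APC1 alone and in APC2 alone, Pi16 at day7C overlapped with day0RT.

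CL against cold on the same day called 0 of 45 member comparisons in adipocytes and in APC1 and APC2 summed by edgeR, against 0.45% of all 78168, and DESeq2 called 0. At an unadjusted p under 0.05 edgeR gave 4 in adipocytes and 2 in APC1 and APC2 summed. Their number is not read, as the share over all genes is not given. The smallest of these edgeR p-values was for Cd34 in that sum at day 1, with a log2 difference of 1.88 (SE 0.61, adjusted p = 0.437). Cd34 there was 8.94, 12.7 and 60.8 CPM at day1C, which overlaps with day1CL. The share of APC2 among these nuclei was 40.7%, 76.1% and 77.4% in the day1C mice and 72.0%, 55.3% and 0% in the day1CL mice. As Cd34 was at or near 0 in APC2, that share enters the difference, and its part was not tested. In adipocytes Dpp4 had a log2 difference of -0.65 at day 1 (SE 0.31, adjusted p = 0.361) and of 0.53 at day 7 (SE 0.24, adjusted p = 0.541).

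In the 6 other cell types with a day 0 comparison, edgeR called 0 of 142 member comparisons, against 0.167% of all 374932, and DESeq2 called 0. Dpp4 in B cells came closest. It was 110, 121 and 165 gene-scale CPM at day0RT, 137, 164 and 187 at day1CL and 144, 151 and 178 at day7CL, overlapping with day0RT in both. The log2 difference of Dpp4 was 0.45 at day1CL (SE 0.15, adjusted p = 0.0775) and 0.39 at day7CL (SE 0.13, adjusted p = 0.117). Without day0RT replicate 2 both were called (0.56, adjusted p = 0.033 and 0.50, adjusted p = 0.042), so 1 control mouse decided that call.

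The ligands and the relay of the receptors were read from lists of their known members. The 4 PDGF ligand genes were not testable between APC1 and APC2, and their mean gene-scale CPM was 115 and 16.6 for Pdgfc, 67.7 and 5.68 for Pdgfd, 14.0 and 93.8 for Pdgfa, and 11.1 and 30.5 for Pdgfb (APC1 first). Of 18 signal relay genes 9 were tested, 1 was higher in APC1 and 2 were lower, against 48.1% called over all genes (median log2 difference 0.07, against 0.01 over all genes tested). A gene can pass the filter through the cluster where it is high, so nothing is read from these counts or from those of beige against white adipocytes. The catalytic subunit Pik3ca was higher by a log2 fold of 0.54 (adjusted p = 0.0136), and the kinase Src and the adaptor Gab1 were lower by -0.96 and -0.93 (adjusted p = 3.1077e-05 and 9.1136e-07). In beige against white adipocytes, Pdgfd was higher by a log2 fold of 0.97 (adjusted p = 2.6499e-12) and Pdgfc lower by -0.37 (adjusted p = 0.00023249), and of 17 relay genes tested 2 were higher (Ptpn11 0.45, Stat5b 0.21) and 3 lower, led by Src (-0.62) and Pik3r1 (-0.42), 5 of 17 against 28.4% over all genes. Against day 0 in adipocytes, 0 of 24 ligand comparisons were called, and of 108 relay comparisons 2 were higher and 4 lower, against 3.43% called over all genes. All 4 lower calls were Src, at day7C, day1CL, day3CL and day7CL (log2 fold -0.82 to -0.55).

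Genes known to mark the populations named after DPP4, ICAM1 and F3 were read in the same fits. Of 12 genes of DPP4-positive interstitial progenitors 6 were tested by edgeR, 5 were higher in APC1 and 1 lower (median log2 difference 1.22, with 48.1% of all genes called), led by the transcription factor gene Creb5 (2.04) and Anxa3 (1.97), with Limch1 lower (-0.80). Of 12 genes of ICAM1-positive committed preadipocytes 4 were tested, and Pparg, the master regulator of adipogenesis, was higher in APC1 (0.76). Of 12 genes of F3-positive stromal cells 3 were tested, Vit was higher in APC1 (1.71) and Meox2 lower (-1.27). As for the members, the clusters were drawn from the same matrix, and a gene can pass the filter through the cluster where it is high. Nothing is therefore read from these counts between APC1 and APC2, nor from those between beige and white adipocytes. In beige against white adipocytes, where 28.4% of all genes were called, the DPP4 list had 1 gene higher and 3 lower of 7 tested, the ICAM1 list 1 higher and 6 lower of 11, led by Ggt5 (-1.25) and Col15a1 (-0.78), and the F3 list 0 higher and 1 lower of 7. In adipocytes against day 0, 8 of 60 comparisons of the DPP4 list were higher and 0 lower, against 3.43% called over all genes, and the 8 were Opcml (0.88 to 1.13 in 5 groups) and the fibrillin gene Fbn1 (0.61 to 0.72 in 3). The ICAM1 list had 4 higher and 3 lower of 72, and the F3 list 2 higher and 1 lower of 60.

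By the Pearson correlation of log2(CPM + 1) over the 12 cell types, a description over 12 points that share libraries, Pdgfra was most like Dchs2 (r = 0.967), Kcnb2 (0.963) and Adamts16 (0.962). Pdgfrb was most like Hs3st3a1 (0.954), Efcc1 (0.940) and Gm17268 (0.939), and Cd34 like Adgrf5 (0.925), Apol7a (0.923) and Col4a4 (0.911). Ly6a was most like Eef2 (0.885), Tra2a (0.885) and Tshz1 (0.877), and Dpp4 like P2ry10 (0.944), Cenpw (0.943) and Llph (0.939). Pi16 was most like Nipal2 (0.940), Crisp2 (0.929) and Nrg3 (0.910), and Cd55 like Rftn2 (0.902), Phf3 (0.891) and Zfp653 (0.888). Icam1 was most like Lrrc8c (0.954), Traf3 (0.949) and Cgas (0.944), and F3 like Gm47289 (0.984), Acaa1b (0.982) and Adcyap1r1 (0.979). Between members the closest pair was Pdgfra and F3 (r = 0.827).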

How the data were processed

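The authors deposited 1 matrix of 0/1 entries, peak by nucleus, with peak positions on mm10 and an annotation giving each nucleus its mouse, group and cell type. The 4 submitted samples are sequencing lanes that pool the groups. Per the submitters' processing notes Bowtie2, SAMtools, MACS2 and Signac were used, and per the study's methods nuclei of low depth and likely doublets were removed before clustering. The deposited counts were summed per mouse and cell type over the peaks on each GENCODE gene and 2000 bases upstream, keeping libraries of at least 10 nuclei. Gene-scale CPM is per 1000000 of the summed gene counts and peak-scale CPM per 1000000 of the summed peak counts. Differences were tested on the counts with edgeR 4.0.16 in R 4.3.3 (glmQLFit, glmQLFTest, two-sided, TMM factors, filterByExpr with a minimum count of 5), Benjamini-Hochberg adjusted over all genes or peaks of a contrast, with a threshold of 0.05, and DESeq2 1.42.0 as an alternative. APC1 against APC2 and beige against white adipocytes used the mouse as a block. Other fits used the group alone, with p-values that measure the spread between mice, and all day 0 contrasts share the same 3 mice. In edgeR that spread is estimated with information shared over all genes or peaks. Each printed SE is the absolute log2 fold divided by the square root of the edgeR F value. The scripts were tested on simulated data.

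Of 18 pairs of same-numbered mice, 0 correlated above 0.1, and replicate numbers were not used to pair mice in the main fits. A low correlation cannot exclude a batch shared by same-numbered mice. The study reports independent batches without linking them to replicate numbers. All members are named. From each list the 2 largest changes in each direction among called genes are named, and for likeness the 3 genes of highest correlation among those of at least 20 CPM in a cell type. Motif searches read both strands of the central bases of each peak, and untranslated bases are not printed. Sequences come from GRCm38.p6, the mm10 assembly, and the annotated starts were compared with RefSeq, which places that of Pi16 at 29318882 and not 29317680. Members and lists were chosen with earlier results of these data known. Alternatives cover normalization, filters, depth, promoter peaks, tool, block and left-out mice.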

Additional observations from a re-analysis of the deposited data

Results flagged for a closer look

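In the 10 libraries of the cluster annotated as vascular smooth muscle, 3 members had 1 mouse far above the rest by Dixon's criterion, of 8 member and cell type pairs tested. Ly6a in day1CL replicate 3 was 90.1 gene-scale CPM, with 21.1 CPM in the next library, and that value is 1 entry. Dpp4 in day7CL replicate 3 was 158 CPM, with 67.5 in the next library, on 2 entries. F3 in day3CL replicate 2 was 67.5 CPM, with 21.1 in the next library, on 1 entry. Chance flags about 1 in 20 groups of values with a smooth spread, and these values rest on 1 or 2 entries each.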

How the results depend on the processing

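Members called were counted again under each alternative. For APC1 against APC2, 2 members were called as reported, 6 of 9 with no filter on low counts, 1 with libraries of at least 5 nuclei and 1 without the 3 mice in which lymphocytes made up under 50% of nuclei (chosen after seeing the data). Leaving out 1 mouse gave 1 to 2, and 1 without day0RT replicate 1, day3C replicate 1, day3C replicate 3, day7C replicate 3, day3CL replicate 3 or day7CL replicate 1. In each of these with 1 call, 1 member was tested, Pdgfrb, as Dpp4 fell below the count filter. Where tested, the Dpp4 log2 fold ran from 2.30 to 2.83 and that of Pdgfrb from -1.41 to -1.05. For beige against white adipocytes, 2 members were called as reported, 1 with a minimum count of 10 and 2 without any 1 mouse. With promoter peaks only 0 were called, where 2 members other than Dpp4 and Pdgfrb could be tested. In cell types other than adipocytes, APC1 and APC2, 0 members were called against day 0, and 0 to 2 when 1 mouse was left out, with 2 (both Dpp4 in B cells) without day0RT replicate 2. Treated groups in adipocytes, in APC1 and APC2 summed, CL against cold and member peaks gave 0 under every alternative run. With the replicate block (chosen for peaks after seeing the data), 0 members were called in adipocytes, APC1 and APC2 summed, other cell types, CL against cold and member peaks. Same-numbered mice had r from -0.10 to 0.052 over 18 pairs. Of single values, the Ly6a difference in adipocytes at day1CL was fitted as -4.05 without day1CL replicate 3, where the other day1CL mice held 0 entries and the value is set by the prior count, so it is not read, and it otherwise lay between 1.92 and 2.87 when 1 choice was altered. The cause of the other shifts was not tested. Depth limits the values in APC1, where 1 entry in the median library is 23.1 CPM, and depth was not compared with the other limits.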
